A study of Mus musculus with 12 samples.

Results

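Complex I, the NADH dehydrogenase that feeds electrons into the mitochondrial respiratory chain, is described here by the nuclear genes named Nduf in mice that carry a hypomorphic mutation of PGC-1beta. The genes were taken by name: every probe set whose single annotated symbol starts with Nduf was kept. This gave 88 probe sets of 44 genes, out of 45037 probe sets and 18193 genes analysed. Of the 44 genes, 34 encode subunits (76 probe sets) and 8 are the assembly factors Ndufaf1 to Ndufaf8 (10 probe sets). The other two, Ndufa4 and Ndufa4l2, carry the name only, since Ndufa4 is now placed in complex IV, cytochrome c oxidase. The subunits were split by position into 6 core and 8 accessory subunits of the matrix arm, 8 proximal and 11 distal subunits of the membrane arm, and Ndufab1, which sits in both arms. The subunits that the mitochondrial genome encodes were not analysed here. Ndufs6 and Ndufa11 were listed only on probe sets with several symbols, which were assigned to no gene.

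The arrays were Affymetrix Murine 430 2.0, hybridised with total RNA from liver or quadriceps muscle. The 4 groups were liver of PGC1beta mutant mice, liver of control mice, quadriceps of PGC1beta mutant mice and quadriceps of control mice, all on C57BL/6, with 3 arrays in each. The mutation is called hypomorphic in the study's title; the sources used here give no allele, sex, age or feeding state. Values are linear probe set intensity, quantile normalised within each tissue. Effects are differences of log2(intensity + 16), mutant minus control, each with its standard error (SE). Adjusted p-values are those of limma after Benjamini-Hochberg adjustment across every gene tested. Whether the 3 samples of a group came from different mice is not stated, so a p-value here speaks of the spread among these arrays, part of which may be technical.

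Complex I has a peripheral arm that reaches into the matrix, where NADH is oxidised and electrons pass along iron-sulfur clusters to ubiquinone, and a membrane arm that pumps protons. The core subunits of the matrix arm carry the redox chemistry. The accessory subunits surround the core, and the assembly factors help build the modules and leave before the enzyme is complete. PGC-1beta is a transcriptional coactivator, encoded by Ppargc1b, that works with factors such as the nuclear respiratory factors and the estrogen-related receptors on genes of oxidative phosphorylation.

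The mutated gene and the samples were checked first. Ppargc1b read 404, 494 and 203 in mutant livers, against 547, 283 and 481 in control livers, and its ranges overlapped (log2 difference -0.28, SE 0.32, limma adjusted p = 0.691). In muscle it read 423, 280.4 and 271 in mutants, against 302, 285 and 332 in controls, and again overlapped; the position of the mutation is not stated, so the probe set may lie outside the altered stretch. The 7 hepatocyte markers measured summed to between 69657 and 74043 on mutant liver arrays and between 79047 and 81140 on control liver arrays, against at most 136 on any muscle array, and 1 of the 7 was lower past the threshold. The 8 skeletal muscle markers summed to between 81882 and 83339 on mutant and between 82794 and 83201 on control muscle arrays. Of 8 macrophage markers, 3 were higher in mutant liver past the threshold, with sums of 2726 to 3640 in mutants and 1717 to 2366 in controls. No adipocyte, endothelial, neutrophil or erythroid marker passed it in either tissue. Over all genes tested in liver, 2.33% were higher and 1.03% lower past the threshold, an adjusted p of 0.05. The part of these cell types in the results was not tested. In such bulk samples, fewer cells of a type and less RNA per cell cannot be told apart.

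Liver arrays also stood apart in RNA quality. The mean log2 ratio of the 3′ to the 5′ probe sets for Actb, Gapdh and Pcx on the array, which rises as RNA breaks down, was 1.90, 0.90 and 1.87 in mutant livers 1, 2 and 3, against 0.74, 0.97 and 0.50 in control livers. Mutants 1 and 3 thus lay above every control, and mutant 2 lay inside the control range. In muscle the ratios ran from 0.33 to 0.56 in mutants and from 0.40 to 0.52 in controls.

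In mutant liver, complex I transcripts were mostly higher than in control liver, but by unequal amounts. Of 44 Nduf genes tested, 8 rose and 0 fell past an adjusted p of 0.05, where 2.33% of all 13326 genes rose and 1.03% fell. These were 6 subunits (Ndufs4, Ndufa7, Ndufa8, Ndufb2, Ndufb3 and Ndufb6), the assembly factor Ndufaf6, and Ndufa4. The difference was above 0 for 38 genes and below 0 for 6, against 51.2% of all genes above 0. On every mutant array the reading was above every control array for 21 of the 44 genes (13.0% of all genes), and for 0 it was below (11.0%). The median difference was 0.30 over subunits and 0.48 over assembly factors, against 0.01 over all genes tested. With values as deposited or median centred the subunit median was 0.49 and 0.48, and 39 genes were above 0.

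With the 3′ to 5′ ratio entered as a covariate, 0 Nduf genes passed and 8 had an unadjusted p under 0.05, and over all genes limma called 2. The share of all genes at that unadjusted level was not computed for this fit. Without mutants 1 and 3, which leaves mutant 2 alone in its group, the assembly factor median was 0.21. On mutant 2, the array inside the control range of the ratio, 24 of 34 subunits and 7 of 8 assembly factors lay above the control mean, against 31 and 5 on control 2, 24 and 5 on control 3 and 2 and 3 on control 1. The subunit median on mutant 2 was 0.19, against -0.20, 0.14 and 0.08 on controls 1, 2 and 3. Leaving out 1 liver array gave 6 calls without mutant 2, 1 without mutant 3, and 0 without mutant 1 or any 1 of the controls.

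**Figure D1:**
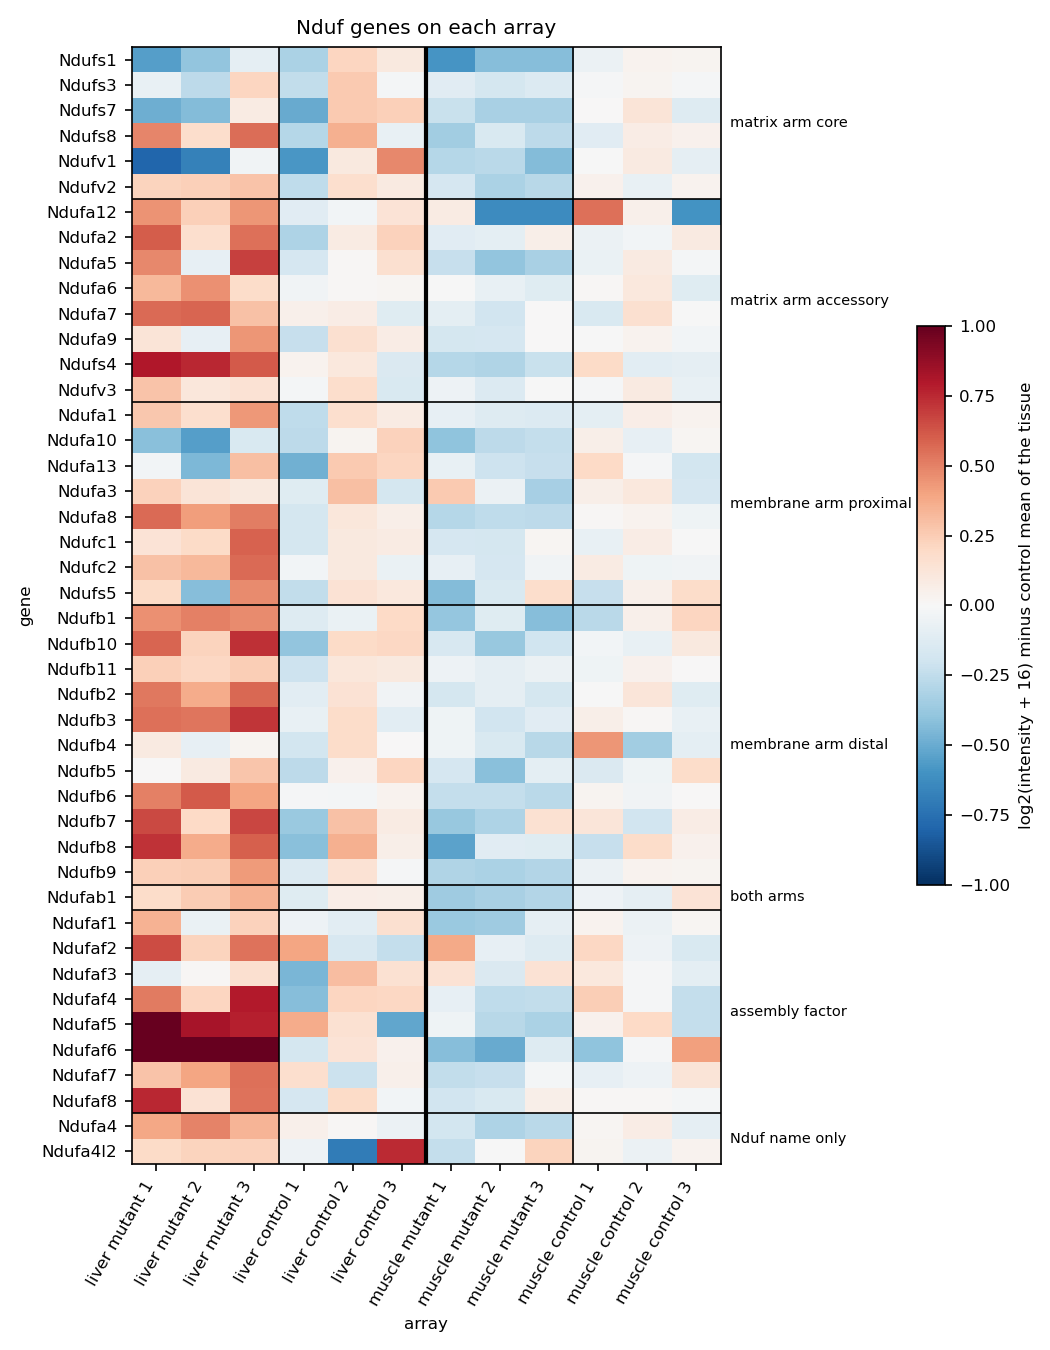
Heat map of the 44 Nduf genes (rows, grouped by position in the complex) on the 12 arrays (columns). Colour is log2(intensity + 16) minus the mean of the control arrays of the same tissue, and stops at 1 in either direction. Mutant liver columns are mostly red, apart from several matrix arm core genes, and mutant muscle columns are mostly pale blue.

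The assembly factor Ndufaf6, which in human cells acts early in assembly, had the largest difference of all members. It read 631, 424 and 514 in mutant livers, against 174, 219 and 205 in control livers. Even the lowest mutant lay well above the highest control, and the fitted rise was 1.31 (SE 0.18, adjusted p = 0.0180), or 2.48-fold on the scale with the offset. In muscle Ndufaf6 read 156, 146 and 195 in mutants, against 159, 213 and 291 in controls, with overlapping groups and a difference of -0.35 (SE 0.20, adjusted p = 0.995).

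Ndufs4, an accessory subunit of the tip of the matrix arm whose loss in mice causes a fatal brain disease, had the next smallest p. It read 1847, 1786 and 1617 in mutant livers, against 1082, 1135 and 954 in control livers, without overlap. The rise was 0.72 (SE 0.12, adjusted p = 0.0213). Ndufa7, another accessory subunit of the matrix arm, read 5058, 5098 and 4172 in mutants, against 3532, 3584 and 3129 in controls. Its groups were also separate, with a rise of 0.48 (SE 0.11, adjusted p = 0.0464).

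In the proximal membrane arm 1 of 8 genes passed, where 2.33% of all genes rose past the threshold. This was Ndufa8, an accessory subunit on the side of the intermembrane space. It read 2839.9, 2556 and 2731 in mutant livers, against 1692, 2072 and 1996 in control livers. The groups were separate and the rise was 0.50 (SE 0.12, adjusted p = 0.0467). Ndufc2 was next in that group with a difference of 0.40 (SE 0.11, adjusted p = 0.0691), likewise without overlap.

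The distal membrane arm had 3 calls among 11 genes, where 2.33% of all genes rose past the threshold. Ndufb3 read 1900.0, 1883 and 2139 in mutant livers, against 1226, 1468 and 1203 in control livers (rise 0.60, SE 0.13, adjusted p = 0.0337). Ndufb6 read 2659, 2863 and 2457 in mutants, against 1853, 1840.2 and 1913 in controls (rise 0.50, SE 0.11, adjusted p = 0.0353). Ndufb2 read 4327, 3883 and 4465 in mutants, against 2780.1, 3308 and 2918 in controls (rise 0.49, SE 0.11, adjusted p = 0.0377). All 3 are small accessory subunits of the proton-pumping arm, and in each every mutant array lay above every control array. Ndufa4, the complex IV subunit, behaved alike in its ranges, with 8072, 8709 and 7820.2 in mutants and 6375, 6199 and 5917 in controls (rise 0.41, SE 0.08, adjusted p = 0.0306).

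**Figure D2:**
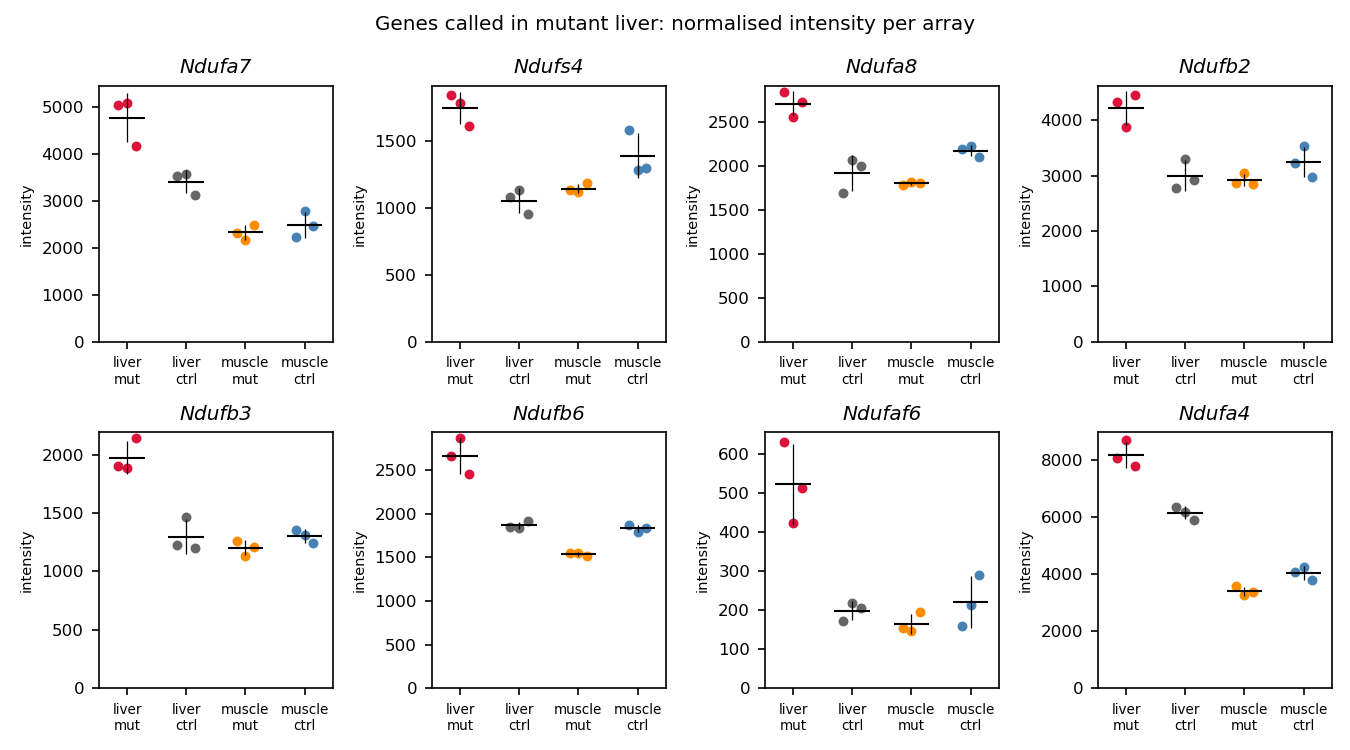
Normalised intensity (linear axes from 0) of the 8 genes called in mutant liver, for liver mutant, liver control, muscle mutant and muscle control. Points are arrays, horizontal bars the mean and vertical bars the SD over 3 arrays; in each panel the 3 mutant livers lie above the 3 control livers.

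The promoters of called subunits are shown as the stretch in which a coactivator's partner factors could bind, for the 5 subunits that passed both in liver and in the comparison of the tissues. Each is the 250 bases before the start of the gene in RefSeq annotation of GRCm38.p6, written 5′ to 3′ on the strand of the gene. The spans are chr13:114388095-114388344 on the minus strand for Ndufs4, chr4:40279422-40279671 on the minus strand for Ndufb6, chr6:39592315-39592564 on the plus strand for Ndufb2, chr1:58586147-58586396 on the plus strand for Ndufb3, and chr2:36049339-36049588 on the minus strand for Ndufa8. Capitals mark matches, on either strand, to the 4 motifs searched, which are GCGCATG (nuclear respiratory factor 1), AAGGTCA (estrogen-related receptor), CCGGAAG (ETS family) and GGGCGG (GC box).
Ndufs4: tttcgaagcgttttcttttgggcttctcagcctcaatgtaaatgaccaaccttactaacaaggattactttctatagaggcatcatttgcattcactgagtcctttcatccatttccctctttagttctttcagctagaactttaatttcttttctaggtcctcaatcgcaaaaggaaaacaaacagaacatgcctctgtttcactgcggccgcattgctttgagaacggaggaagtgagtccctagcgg
Ndufb6: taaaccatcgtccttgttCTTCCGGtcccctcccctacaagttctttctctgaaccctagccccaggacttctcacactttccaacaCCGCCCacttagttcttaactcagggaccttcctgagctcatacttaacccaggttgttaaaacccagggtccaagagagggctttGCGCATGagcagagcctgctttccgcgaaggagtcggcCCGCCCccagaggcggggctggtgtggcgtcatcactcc
Ndufb2: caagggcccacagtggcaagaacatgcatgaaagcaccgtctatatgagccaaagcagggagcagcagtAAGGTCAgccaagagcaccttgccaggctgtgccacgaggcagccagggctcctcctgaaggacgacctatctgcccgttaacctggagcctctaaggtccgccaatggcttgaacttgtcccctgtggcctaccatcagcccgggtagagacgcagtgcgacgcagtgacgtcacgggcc
Ndufb3: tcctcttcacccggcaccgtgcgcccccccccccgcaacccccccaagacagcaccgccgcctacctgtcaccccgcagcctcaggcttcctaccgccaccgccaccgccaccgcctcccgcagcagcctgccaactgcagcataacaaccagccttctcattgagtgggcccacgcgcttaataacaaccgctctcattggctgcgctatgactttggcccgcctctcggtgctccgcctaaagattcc
Ndufa8: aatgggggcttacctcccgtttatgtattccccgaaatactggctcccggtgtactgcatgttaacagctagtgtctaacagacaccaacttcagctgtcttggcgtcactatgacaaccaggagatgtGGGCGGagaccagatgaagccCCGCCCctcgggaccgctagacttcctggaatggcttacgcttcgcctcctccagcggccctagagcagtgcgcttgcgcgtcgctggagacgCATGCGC

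A promoter was matched for 39 of the 44 genes. A gene is counted if any promoter listed for it held the match, whereas the percentages count each promoter by itself. GCGCATG was found in 4 of these 39 (Ndufa6, Ndufa8, Ndufaf4 and Ndufb6) and in 3.24% of all 32851 promoters of this length. AAGGTCA was found in 3 (Ndufb2, Ndufb4 and Ndufs5), against 4.08% of all promoters. CCGGAAG was found in 5 (Ndufaf1, Ndufaf8, Ndufb6, Ndufb7 and Ndufs3), against 6.91%, and GGGCGG in 19, against 32.7%. No 2 of these motifs share letters in an overlapping match in the 5 promoters shown, where Ndufs4 and Ndufb3 held none of the 4, Ndufb6 held GCGCATG, an ETS match and GC boxes, Ndufb2 held the receptor motif, and Ndufa8 held GCGCATG and GC boxes. These matches describe letters only and were set against no expression value.

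In the matrix arm, the 8 accessory genes all had a difference above 0 in liver, with a median of 0.37. Of the 6 core genes 4 were below 0, with a median of -0.16, but 3 of 6 and a median of 0.02 with values as deposited or median centred. Ndufv1, the subunit that binds FMN and NADH, read 1172, 1269.8 and 1996 in mutants, against 1362, 2189 and 2856 in controls (difference -0.50, SE 0.26, adjusted p = 0.333). Ndufs1, the largest subunit and a carrier of iron-sulfur clusters, read 547, 611 and 759 in mutants, against 647, 941 and 866 in controls (difference -0.34, SE 0.18, adjusted p = 0.330). Both pairs of groups overlapped and neither gene passed. The core genes with the smallest p were Ndufs8, an iron-sulfur subunit near the quinone site, at 0.41 (SE 0.17, adjusted p = 0.214) and Ndufv2 at 0.25 (SE 0.13, adjusted p = 0.310); only the Ndufv2 groups were separate, with 2796, 2827 and 2918 in mutants, against 1997, 2681 and 2549 in controls.

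In the membrane arm, the 11 distal genes all had a difference above 0, with a median of 0.49, and the 8 proximal genes had 6 above 0 and a median of 0.22 (7 above 0 and medians of 0.44 and 0.43 as deposited and median centred). Ndufa10, an accessory subunit of the proximal part, was the 1 member that was lower at an unadjusted p under 0.05. It read 1088, 993 and 1314 in mutant livers, against 1215, 1491 and 1718 in control livers, with overlap (difference -0.37, SE 0.16, adjusted p = 0.232). At that unadjusted level 25 members were higher, where 11.0% of all genes were higher and 8.64% lower.

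All 8 assembly factors had a difference above 0 in liver (7 with values as deposited or median centred, where Ndufaf3 was just below 0), and 1 of them, Ndufaf6, passed. Of all genes, 51.2% were above 0, 2.33% rose past the threshold, and 13.0% had every mutant array above every control array. Ndufaf5, which in human cells hydroxylates a residue of Ndufs7, came next. It read 155, 114 and 110.2 in mutants, against 79.3, 65.9 and 35.5 in controls, without overlap (difference 0.94, SE 0.25, adjusted p = 0.0686). Ndufaf7, a methyltransferase in human cells, was also separate, with 143, 156 and 175 in mutants and 131, 96.9 and 119 in controls, at 0.41 (SE 0.17, adjusted p = 0.231). The other five overlapped between groups. Ndufaf4, a factor of the quinone module, stood at 0.51 (SE 0.21, adjusted p = 0.211), Ndufaf8, the partner of Ndufaf5, at 0.48 (SE 0.18, adjusted p = 0.174), and Ndufaf2, a late-acting factor, at 0.47 (SE 0.21, adjusted p = 0.247). Ndufaf1, which acts on the membrane arm, was at 0.17 (SE 0.16) and Ndufaf3, the partner of Ndufaf4, at 0.03 (SE 0.21). Without mutants 1 and 3 the assembly factor median was 0.21 and the subunit median 0.19.

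**Figure D3:**
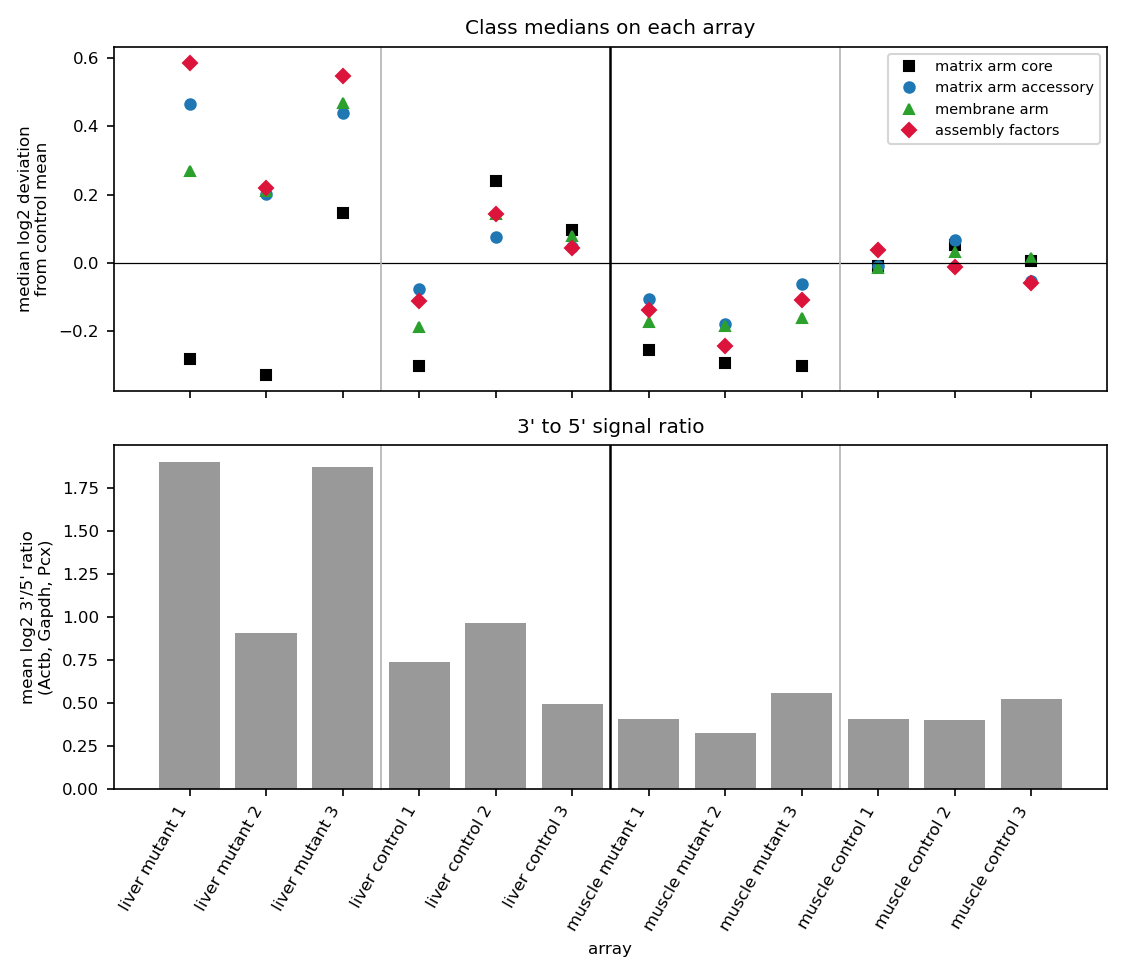
Upper panel, median over the genes of a class of log2(intensity + 16) minus the control mean of the tissue, on each of the 12 arrays. Lower panel, mean log2 ratio of the 3′ to the 5′ control probe sets on the same arrays; liver mutants 1 and 3 are at 1.90 and 1.87, and the other arrays lie between 0.33 and 0.97.

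Array by array, the median over assembly factors stood 0.59, 0.22 and 0.55 above the liver control mean in mutants 1, 2 and 3, against -0.11, 0.14 and 0.04 in controls. The median over membrane arm genes was 0.27, 0.21 and 0.47 in mutants, against -0.19, 0.14 and 0.08 in controls. The median over matrix arm core genes was -0.28, -0.33 and 0.15 in mutants, against -0.30, 0.24 and 0.10 in controls. The first and second of these did not overlap between the groups, and the core medians did.

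In mutant muscle, complex I transcripts were slightly lower than in control muscle in nearly all members, and none passed the test. Of 43 genes tested (the probe set that stands for Ndufb4 was too dim), limma called 0, with 2 of all 13131 genes called (0.0152%). The difference was below 0 in 41 of the 43, including all 33 subunits tested, against 50.1% of all genes. At an unadjusted p under 0.05, 15 members were lower and 0 higher, where 2.52% of all genes were lower and 1.74% higher. On every mutant array the reading was below every control array for 17 members (5.22% of all genes), and for 0 above (4.33%). The median was -0.23 over subunits and -0.18 over assembly factors, against -0.00 over all genes.

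The matrix arm core genes, which were split in liver, were below 0 in muscle in 6 of 6, with a median of -0.27. Ndufs1 read 1219, 1368 and 1363 in mutant muscle, against 1767, 1881 and 1873 in control muscle. The groups were far apart relative to their spread, and the difference was -0.48 (SE 0.09, unadjusted p = 0.000222, adjusted p = 0.583 by limma). Ndufv1 read 1962, 1986 and 1769 in mutants, against 2389.7, 2550.0 and 2250.1 in controls, also without overlap (difference -0.33, SE 0.09, adjusted p = 0.995).

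Of the other classes, the genes with the smallest p were as follows. In the distal membrane arm, Ndufb9, which binds the acyl carrier protein, read 4098, 4072 and 4128 in mutant muscle, against 4857, 5179.8 and 5166 in control muscle (difference -0.30, SE 0.06, adjusted p = 0.980). Ndufb6 read 1555, 1550.1 and 1516 in mutants, against 1865, 1789 and 1842 in controls (difference -0.25, SE 0.08, adjusted p = 0.995). Both pairs of groups were separate. Among matrix arm accessory genes Ndufa5 was at -0.32 (SE 0.09) and Ndufs4 at -0.27 (SE 0.10), and among proximal membrane arm genes Ndufa8 was at -0.27 (SE 0.07) and Ndufa10 at -0.30 (SE 0.09), each without overlap and each with an adjusted p of 0.995. Ndufab1, the mitochondrial acyl carrier protein, read 1746, 1789 and 1828 in mutants, against 2167, 2107 and 2459 in controls (difference -0.32, SE 0.09, adjusted p = 0.995).

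Of the 8 assembly factors in muscle, 7 overlapped between the groups, where 5.22% of all genes were separate below and 4.33% separate above. Ndufaf1 was the 1 of 8 whose groups were separate, with 291, 293 and 356 in mutants, against 391, 364 and 386 in controls (difference -0.27, SE 0.12, adjusted p = 0.995). Ndufaf2 (0.06, SE 0.18) and Ndufaf3 (0.05, SE 0.13) were the only members above 0, joined by Ndufa4l2 with values as deposited or median centred. Ndufaf4 was at -0.19, Ndufaf5 at -0.21, Ndufaf7 at -0.16 and Ndufaf8 at -0.10. Ndufa4 stood at -0.25 (SE 0.07), with 3575, 3268 and 3364 in mutants, against 4098, 4275 and 3801 in controls, and Ndufa4l2, its dim relative, at -0.01 (SE 0.15).

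**Figure D4:**
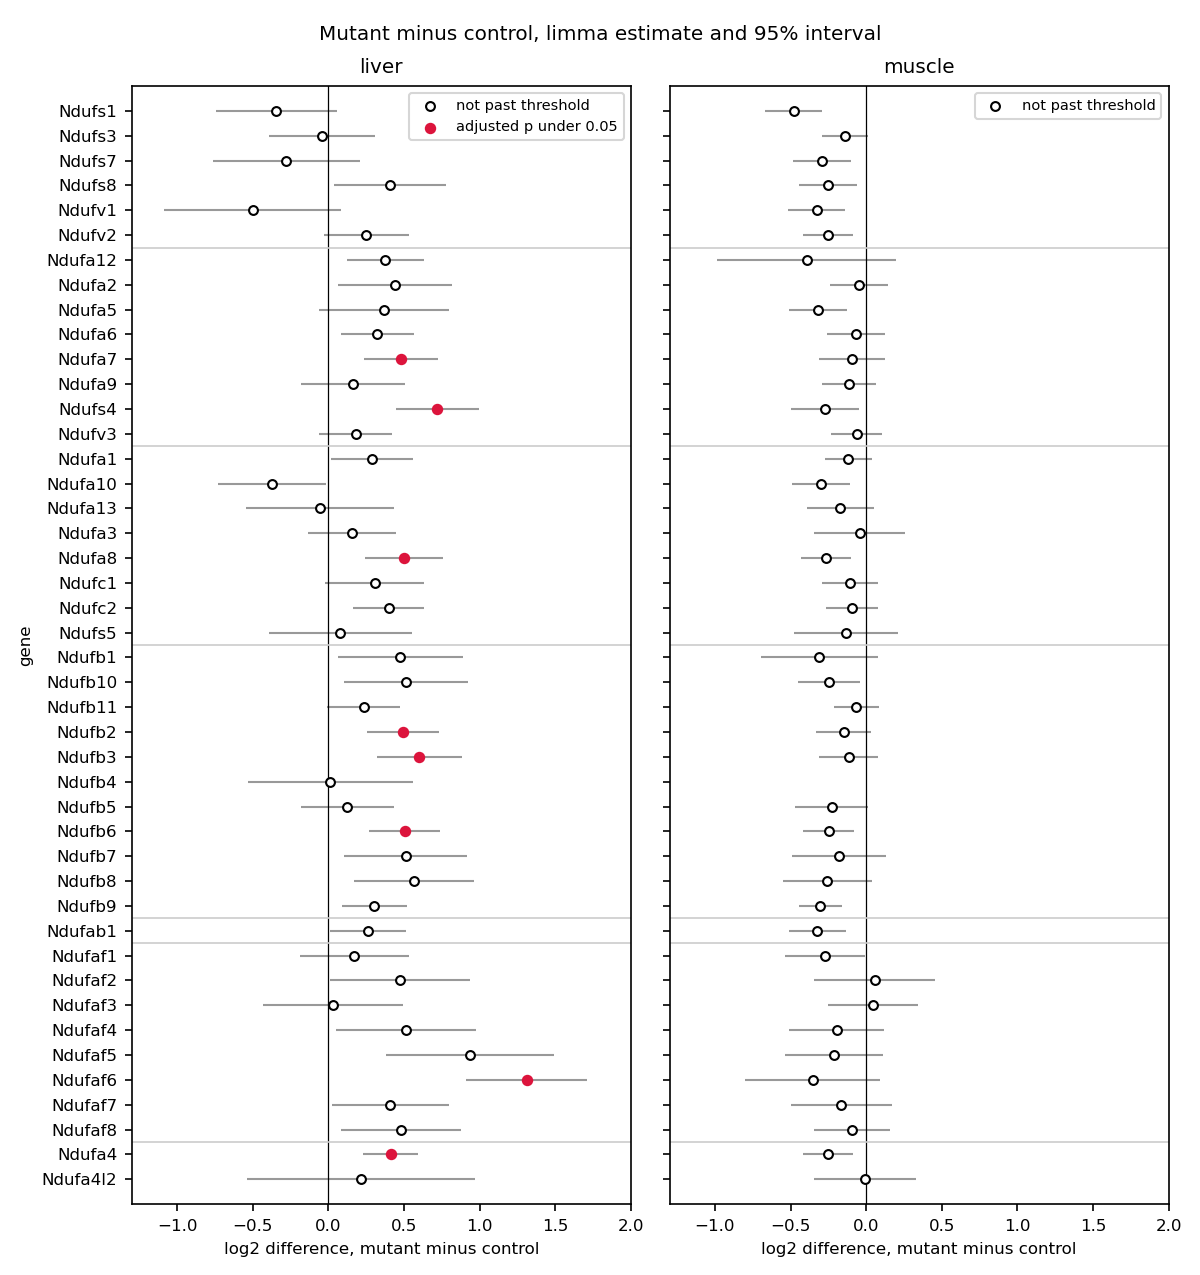
Log2 difference, mutant minus control, of each Nduf gene in liver (left) and muscle (right), with the limma 95% interval. Filled points passed an adjusted p of 0.05; horizontal lines part the classes in the order matrix arm core, matrix arm accessory, proximal and distal membrane arm, both arms, assembly factors and name only. Ndufb4 was not tested in muscle.

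Whether the response differed between the tissues was tested as an interaction, the liver difference minus the muscle difference. Of 43 genes tested, 9 were called, all higher in liver, where 1.42% of 11841 genes were called with 1.16% higher and 0.262% lower. They were Ndufaf6 (1.67, SE 0.28, adjusted p = 0.0165), Ndufs4 (0.99, SE 0.16, adjusted p = 0.0134), Ndufa8 (0.77, SE 0.13, adjusted p = 0.0180), Ndufb6 (0.75, SE 0.12, adjusted p = 0.0165), Ndufb3 (0.72, SE 0.15, adjusted p = 0.0331), Ndufa4 (0.66, SE 0.12, adjusted p = 0.0179), Ndufb2 (0.64, SE 0.14, adjusted p = 0.0358), Ndufb9 (0.61, SE 0.12, adjusted p = 0.0323) and Ndufab1 (0.58, SE 0.14, adjusted p = 0.0498). The list shared 7 genes with the 8 called in liver, Ndufa7 being called in liver alone and Ndufab1 and Ndufb9 in the interaction alone. With the 3′ to 5′ covariate 0 of the 43 were called and 15 had an unadjusted p under 0.05, and limma called 1 of all genes. The share of all genes at that unadjusted level was not computed for this fit. Leaving out 1 array gave 0 calls without liver mutant 1 or without muscle mutant 2, 3 without muscle control 1 or 2, 9 without liver control 2, 12 without liver mutant 2 and 5 without any 1 of the other six arrays.

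By sign alone, 35 of the 43 genes were above 0 in liver (51.2% of all genes) and below 0 in muscle (50.1%), and 0 ran the other way. Another 6 were below 0 in both tissues (Ndufs1, Ndufs3, Ndufs7 and Ndufv1 of the matrix arm core, and Ndufa10 and Ndufa13 of the proximal membrane arm), and Ndufaf2 and Ndufaf3 were above 0 in both. For 9 genes every mutant liver lay above every control liver (13.0% of all genes) and every mutant muscle below every control muscle (5.22%). These were Ndufa4, Ndufa8, Ndufab1, Ndufb6, Ndufb9, Ndufb10, Ndufb11, Ndufs4 and Ndufv2. The percentages of all genes are for each tissue on its own, and the share that met both conditions was not computed. The median interaction was 0.49 over subunits and 0.57 over assembly factors, against 0.03 over all genes. By class it was 0.12 in the matrix arm core, 0.53 in the matrix arm accessory genes, 0.31 in the proximal and 0.70 in the distal membrane arm.

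Levels of the genes by tissue were compared in the control mice, after all 6 control arrays had been quantile normalised together. In control liver, 38 of 44 genes were lower than in control muscle and 0 higher, in a comparison in which 57.4% of 13437 genes were called, 29.9% lower and 27.5% higher. The 38 held 33 of 34 subunits, with a subunit median of -1.14, and 3 of 8 assembly factors, with a median of -0.27. The assembly factor Ndufaf5 had the largest difference, with 49.8 ± 19.2 in control liver and 362 ± 59.2 in control muscle (SD, n = 3 each), or -2.56 (SE 0.23, limma adjusted p = 2.82e-06). Ndufs1 averaged 635 ± 112 in liver and 2531 ± 95.4 in muscle (difference -1.98, SE 0.13, limma adjusted p = 2.56e-07). Ndufa5, an accessory subunit of the matrix arm, averaged 641 ± 69.8 in liver and 2463 ± 145 in muscle (difference -1.92, SE 0.11, limma adjusted p = 7.92e-08).

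The 3 members above 0, where 49.6% of all genes were above 0, did not pass. Ndufb4 was at 0.44 (SE 0.29), near background on its probe set, Ndufaf2 at 0.21 (SE 0.20) and Ndufaf7 at 0.01 (SE 0.17). The brighter probe sets 1428075_at and 1428076_s_at, which list Ndufb4 with Ndufb4b and Ndufb4c, were assigned to no gene. They were lower in control liver, at -1.22 (SE 0.09) and -1.41 (SE 0.10), with limma adjusted p-values over all probe sets of 6.13e-07 and 3.26e-07. Besides Ndufaf5, the assembly factors Ndufaf6 (-0.67, SE 0.21) and Ndufaf1 (-0.56, SE 0.12) were lower in liver. These levels depend on how the tissues are scaled. With values as deposited the median of all genes shifted to 0.51, 6 Nduf genes were higher in liver and 16 lower, the subunit median was -0.40 and the assembly factor median 0.37, and 6 of the 38 called genes turned sign, namely Ndufaf1 (0.11), Ndufa4 (0.46), Ndufa6 (0.16), Ndufa7 (0.35), Ndufb9 (0.25) and Ndufc2 (0.26). With each tissue normalised on its own 9 were higher and 22 lower, and with median centring 0 were higher and 31 lower. Relative to the median of all genes, the subunit median lay at -1.13 under the joint scaling and -0.90 under each of the 3 others, and the assembly factor median at -0.26 and between -0.13 and -0.14. Median centring shifts every gene of an array alike, so on this relative scale it must give the same values as those deposited.

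**Figure D5:**
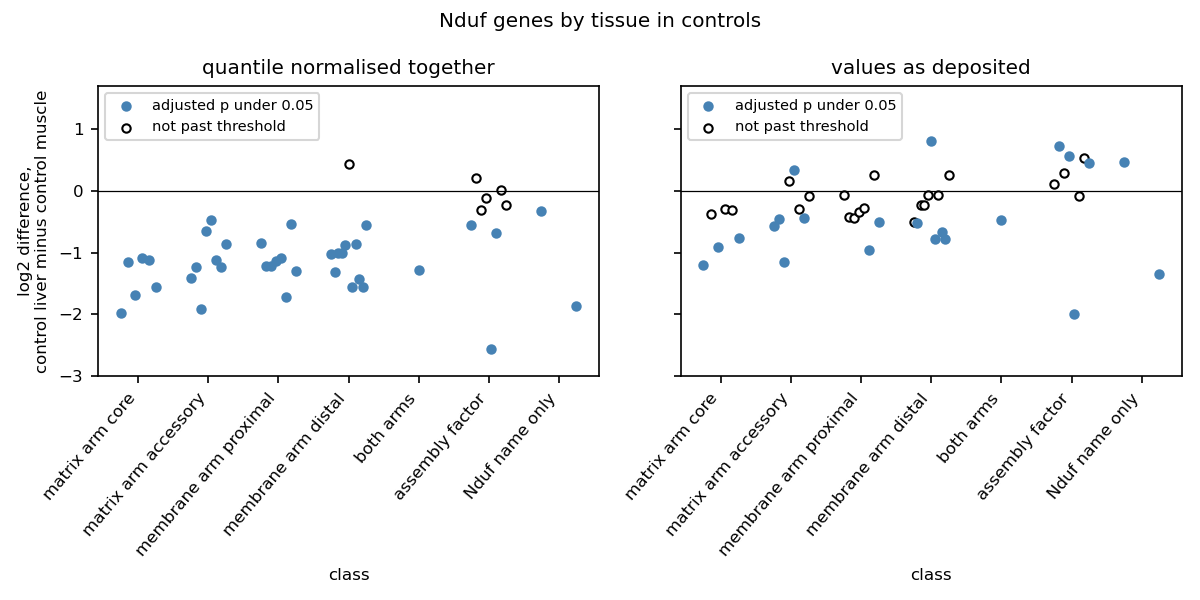
Log2 difference, control liver minus control muscle, of each Nduf gene by class, with the 6 control arrays quantile normalised together (left) and with values as deposited (right). Points are genes and filled points passed an adjusted p of 0.05; under either scaling Ndufaf5 is the lowest of all members.

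Several genes were read by more than 1 probe set, which gives the same RNA a further reading on the same arrays. Of the 44 genes, 22 had 1 probe set and 22 had several. In liver, 71 of 82 probe sets tested were above 0, and 11 in 7 genes passed, where 2.06% of all probe sets passed. These were the genes called in liver above, without Ndufa8. In muscle 74 of 82 were below 0 and 0 passed (0.00740% of all). In the interaction 76 of 81 were above 0 and 14 in 9 genes passed (0.810%). These 9 differed from the 9 called by gene, since they held Ndufa7 and lacked Ndufab1. Of the 22 genes with several probe sets, 17 had 1 direction in liver throughout, and 5 (Ndufa10, Ndufa3, Ndufab1, Ndufs4 and Ndufs7) had probe sets of either sign. In muscle 16 of the 22 had 1 direction, and 6 (Ndufa3, Ndufaf8, Ndufb8, Ndufc2, Ndufs4 and Ndufs8) had probe sets of either sign.

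Of the genes with liver probe sets of either sign, Ndufs4 was the gene called in liver. Its brightest probe set, the one described above, was at 0.72 (limma adjusted p = 0.0309 over all probe sets). A second, 1438166_x_at, read 264, 203 and 255 in mutant livers, against 88.0, 107 and 98.2 in control livers, and was at 1.17 (adjusted p = 0.0250). Another, 1418117_at, read 64.8, 55.9 and 54.1 in mutants, against 62.5, 69.4 and 46.3 in controls, and was at -0.01 (adjusted p = 0.987). The first 2 were separate between groups, whereas the last overlapped. The 5 probe sets of Ndufa7 were all above 0 in liver, from 0.48 to 0.91, with 3 past the threshold.

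Assembly factors that do not carry the Nduf name gave a further view of the same process. Of 11 listed, 10 were measured, and 0 passed in liver or muscle. At an unadjusted p under 0.05 by limma, 2 were higher in liver, where 11.0% of all genes were higher and 8.64% lower. In muscle 0 reached that level, where 1.74% of all genes were higher and 2.52% lower. In liver 7 were above 0 (51.2% of all genes) with a median of 0.25, and in muscle 8 were below 0 (50.1%) with a median of -0.10. Dmac1, a factor of the distal membrane arm, read 1325, 1131 and 1343 in mutant livers, against 799, 931 and 565 in control livers, without overlap (difference 0.74, SE 0.18, adjusted p = 0.0548). Tmem70, a membrane protein that also serves the assembly of ATP synthase, read 559, 584 and 600.1 in mutants, against 307, 422 and 444 in controls, also without overlap (difference 0.57, SE 0.17, adjusted p = 0.0885).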

How the data were processed

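Total RNA of 12 samples, 3 in each group of tissue and genotype, was read on Affymetrix Murine 430 2.0 arrays. The authors deposited linear intensity per probe set, with 1 column per array; their probe summary and scaling were not given in the sources used here. Deposited values had array medians of 27.2 to 40.1 (liver) and 20.1 to 22.3 (muscle); precision is limited by how many arrays there are. The 64 control probe sets among 45101 were left out. Symbols came from GEO's platform annotation and were checked by Entrez identifier against GRCm38.p6 for 34741 of 34945 probe sets with 1 symbol. A gene is represented by its probe set with the highest mean. The deposited values were quantile normalised within tissue (over the 6 controls together for the tissue comparison), taken as log2(value + 16), and kept above the 40th percentile of the mean. R 4.3.3 and limma 3.58.1 (variance trend, Benjamini-Hochberg, threshold 0.05) gave each test, checked on simulated data; Python 3.11.15 and matplotlib 3.10.9 drew the figures. The members and lists were chosen with earlier results of these data known. Genes named are the mutated gene, every Ndufaf gene, each called gene, the 2 smallest p of each position class in each tissue, Ndufa4, Ndufa4l2 and Ndufab1, the 3 largest tissue differences each way, and the 2 smallest p of the other assembly factors; Ndufc2, the core genes below 0 in liver, Ndufb10 and Ndufb11, and the genes given by sign or by a motif match were named after their values were seen. Same-numbered arrays of different groups correlated between -0.11 and 0.17 in their deviations, so the numbers were not taken to pair samples. Alternatives were the offset, filter, normalization, variance trend, probe set choice, array weights, 1 fit of all arrays, a replicate block, the 3′ to 5′ ratio, and leaving out arrays.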

Additional observations from a re-analysis of the deposited data

Results flagged for a closer look

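The response of 9 Nduf genes differed between the tissues by the interaction test, liver difference minus muscle difference, at 1.67 for Ndufaf6, 0.99 for Ndufs4, 0.77 for Ndufa8, 0.75 for Ndufb6, 0.72 for Ndufb3, 0.66 for Ndufa4, 0.64 for Ndufb2, 0.61 for Ndufb9 and 0.58 for Ndufab1. These calls held in 4 (Ndufab1) to 20 (Ndufaf6) of 25 alternative settings. Ndufab1 and Ndufs4 had liver probe sets of either sign, and Ndufs4 had muscle probe sets of either sign too. For Ndufs4, Ndufa8, Ndufb6, Ndufa4, Ndufb9 and Ndufab1 every mutant array lay above every control array in liver and below every control array in muscle. Over all genes tested, 13.0% were separate above in liver and 5.22% separate below in muscle, and the share with both was not computed. In 3 further genes the arrays moved in opposite directions in the same way, without passing the interaction test: Ndufb10 at 0.76 (limma adjusted p = 0.111), Ndufv2 at 0.50 (adjusted p = 0.113) and Ndufb11 at 0.30 (adjusted p = 0.278). As given in the report, the 3′ to 5′ ratio of liver mutants 1 and 3 lay above that of every control liver. Its part in these differences was not tested beyond the fits that include the ratio or leave those arrays out.

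Of the 10 probe sets that list an Nduf symbol among several, which the report's comparisons do not use, 3 were higher in mutant liver past the threshold over all probe sets (2.06% of all probe sets were called). They were 1428075_at at 0.70 (SE 0.12, limma adjusted p = 0.0269), 1429708_at at 0.88 (SE 0.19, adjusted p = 0.0453) and 1433603_at at 0.56 (SE 0.11, adjusted p = 0.0380). The first lists Ndufb4, Ndufb4b and Ndufb4c, the second Ndufa11 and Ndufa11b, and the third Ndufs6 and Ndufs6b. The first read 3362, 3647 and 2924 in mutant livers, against 2102, 2071 and 1900.0 in control livers. The second read 1896, 1275 and 1703 in mutants, against 679, 990.2 and 948 in controls, and the third 3041, 2661 and 2983 in mutants, against 1863, 2022 and 1997 in controls. All 3 were separate between the groups.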

How the results depend on the processing

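The number of Nduf genes called in liver, 8, depended on the settings. It was 2 with no filter on dim genes, 0 without the variance trend, 3 when a gene's probe sets were averaged, 0 with a replicate block, 0 with the 3′ to 5′ covariate, 0 without liver mutants 1 and 3, and from 0 (without mutant 1, control 1, control 2 or control 3) through 1 (without mutant 3) to 6 (without mutant 2) when 1 array was left out. The 9 genes called for the difference between tissues became 4 with no filter, 0 without the variance trend, 14 probe sets when each was tested on its own, 2 with the replicate block, 0 with the covariate, 0 without liver mutants 1 and 3, and from 0 to 12 without 1 array, with 0 both without liver mutant 1 and without muscle mutant 2. In muscle the count was 0 under every setting run. The 38 genes called between control tissues became 22 as deposited and 70 probe sets when tested singly, and 37 to 38 without 1 array.

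The subunit median in liver was 0.49 with values as deposited, 0.48 with median centring, and 0.22 to 0.36 without 1 array; the assembly factor median was 0.19 with the covariate, 0.21 without liver mutants 1 and 3 and 0.40 to 0.62 without 1 array. In muscle the subunit median was -0.20 with no filter, -0.16 with averaged probe sets and -0.25 to -0.17 without 1 array, and the assembly factor median from -0.17 to -0.13 without 1 array. Signs turned in liver for Ndufaf3 (-0.0036 as deposited, -0.0085 with median centring, -0.020 with the covariate, -0.20 to 0.18 without 1 array), Ndufaf1 (-0.019 with the covariate, -0.066 without mutants 1 and 3) and Ndufa4l2 (-0.13 to 0.58 without 1 array); in muscle for Ndufa4l2 (0.013 as deposited, 0.026 with median centring, 0.0072 with the covariate, -0.12 to 0.11 without 1 array), Ndufaf2 (-0.10 to 0.16) and Ndufaf3 (-0.0026 to 0.14); and between control tissues for Ndufaf7 (-0.069 to 0.12). Causes were not tested. Probe sets near background, such as that which stands for Ndufb4, have their changes understated by the offset.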
